A study of Mus musculus with 9 samples.

Results

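The genes that flank Notch1 on mouse chromosome 2 were followed in RNA of sorted lung endothelial cells. A gene belonged to the set when it lay within a 6 Mb window of chromosome 2 (GRCm39) that reaches 2.95 Mb below and 2.99 Mb above the ends of Notch1, and when it averaged at least 1 CPM, the read count scaled to library size, over the 9 libraries. The genes so chosen start at 24068846 and end at 29143018. Notch1 itself and Nrarp were left out. Of the 238 annotated genes of this window 142 had a lower mean, 53 of them with 0 counts in every library, so 94 genes remained out of 56748 in the table. Position, and not a difference between groups, chose them, although the set itself was picked with earlier results of these data known. The expression minimum is a mean over all groups, and 8 of the 94 had a mean under 1 CPM in at least a single group. The nearest genes to the minimum were Gbgt1 at 0.883 CPM, just outside, and Gm13563 at 1.05 CPM, just inside.

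The tissue came from 6-week-old C57BL/6 mice, and endothelial cells were selected by CD31 after removal of dead and CD45-bearing cells. Libraries numbered 3 for Notch1f/f, 3 for DNMAML and 3 for WT. Notch1f/f denotes a conditional (floxed) Notch1 allele. DNMAML commonly stands for a truncated, dominant-negative form of Mastermind-like that stops Notch receptors from switching on transcription. The sources used here do not give the recombinase, the promoter behind it, any treatment of WT mice or the origin of the floxed allele. Nor do they say whether each library is a separate mouse, so the tests reflect the spread among these libraries, which may in part be technical. Each genotype held libraries with and without Y-linked transcripts, so its libraries did not all come from the same mouse.

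Notch receptors are cut after ligand binding, and the released part joins the DNA-binding protein Rbpj and a Mastermind protein to switch on target genes. Notch1 is the receptor most often studied in endothelium. An engineered allele is inherited together with the DNA around it, which is the reason the neighbours of a floxed gene are worth reading on their own. Egfl7, which lies next to Notch1, encodes a protein secreted by endothelial cells and hosts the endothelial microRNA miR-126 in an intron.

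Total counts ran from 15522100 to 27842496 per library. The 8 endothelial marker genes, among them Cdh5 and Pecam1, summed to 13856 to 17051 CPM in Notch1f/f, 14967 to 16372 in DNMAML and 15759 to 17168 in WT libraries, so the endothelial label fits the data. RNA of other cells was present too. The 8 mural markers summed to 82.7 to 161 CPM in Notch1f/f, 207 to 403 in DNMAML and 334 to 513 in WT. The 10 cell cycle markers summed to 62.4 to 374 CPM in Notch1f/f and 224 to 287 in DNMAML, against 15.1 to 19.3 in WT. Y-linked Ddx3y was above 1 CPM in 4 libraries (Notch1f/f 1, DNMAML 1 and 3, WT 2), so both sexes were included.

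Notch1 (ENSMUSG00000026923, minus strand, chromosome 2, 26347915 to 26406675) is the gene that the floxed label names. Its levels were 70.8, 29.5 and 176 CPM in Notch1f/f libraries, 679, 872 and 777 CPM in DNMAML libraries and 766, 909 and 811 CPM in WT libraries. All Notch1f/f libraries lay below all others, while DNMAML and WT overlapped. The log2 difference of Notch1f/f from WT was -3.17 (SE 0.59), which missed the threshold used throughout, a Benjamini-Hochberg adjusted p below 0.05 in the edgeR quasi-likelihood test over 19486 genes (adjusted p = 0.0634). Nrarp, a Notch-induced inhibitor of Notch signalling inside the same window, had 2.46, 3.54 and 6.37 CPM in Notch1f/f, 5.57, 3.25 and 6.91 CPM in DNMAML and 6.45, 4.36 and 5.51 CPM in WT, with overlap among all 3 genotypes.

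Sequences are shown for the microRNA hosted beside Notch1 and for the promoters of the nearest gene that does not overlap Notch1 (Sec16a), of the gene with the lowest log2 difference of Notch1f/f from WT (Card9) and of a matrix gene farther out (Adamtsl2). They are credited to RefSeq on GRCm38.p6, an earlier build than that of the counts. Promoters run 5′ to 3′ on the strand of the gene, from 250 bases before the start to 50 after it. Capitals in the microRNA mark its seed, and capitals in promoters mark GTGGGAA, a sequence that Rbpj binds, searched on both strands.
miR-126a-3p, plus strand, chr2:26591402-26591423: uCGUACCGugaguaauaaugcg
Sec16a, minus strand, chr2:26445167-26445466: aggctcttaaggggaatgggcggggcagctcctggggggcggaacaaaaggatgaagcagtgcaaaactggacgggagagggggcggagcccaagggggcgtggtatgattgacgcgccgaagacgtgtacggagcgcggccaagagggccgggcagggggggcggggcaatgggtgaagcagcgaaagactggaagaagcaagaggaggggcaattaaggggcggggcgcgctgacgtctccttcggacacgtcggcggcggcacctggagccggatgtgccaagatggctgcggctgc
Card9, minus strand, chr2:26360860-26361159: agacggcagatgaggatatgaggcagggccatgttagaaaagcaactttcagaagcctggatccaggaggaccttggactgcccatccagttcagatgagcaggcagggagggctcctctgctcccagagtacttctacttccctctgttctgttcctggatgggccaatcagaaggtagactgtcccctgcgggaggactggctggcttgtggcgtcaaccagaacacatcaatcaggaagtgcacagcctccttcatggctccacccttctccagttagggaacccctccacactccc
Adamtsl2, plus strand, chr2:27079129-27079428: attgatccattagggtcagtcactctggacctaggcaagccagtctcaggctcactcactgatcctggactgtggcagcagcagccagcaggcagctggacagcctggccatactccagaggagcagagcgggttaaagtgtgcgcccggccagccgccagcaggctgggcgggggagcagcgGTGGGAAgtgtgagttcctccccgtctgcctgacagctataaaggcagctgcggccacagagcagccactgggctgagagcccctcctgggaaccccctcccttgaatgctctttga
Adamtsl2 holds GTGGGAA from 67 bases before its start, and the Sec16a and Card9 windows hold none. RefSeq gave a promoter for 81 of the 94 genes, 95 promoters in all, of which 4 (4.21%) held GTGGGAA, against 6.38% of all 32851 promoters of this length. The 4 belong to Edf1, Mamdc4, Adamtsl2 and 1700007K13Rik. A match is a description of the letters and shows no binding.

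Expression along the interval was dominated by Egfl7 (plus strand, 26470026 to 26483132), 63.4 kb from Notch1. Its level was 1272, 948 and 1015 CPM in Notch1f/f, 1063, 1184 and 982 CPM in DNMAML and 889, 1155 and 1058 CPM in WT. These ranges overlap almost completely, and Egfl7 made up 24.5% of the summed CPM of the 94 genes in Notch1f/f, 25.0% in DNMAML and 24.0% in WT. Its log2 difference from WT was 0.06 (SE 0.16) in Notch1f/f and 0.06 (SE 0.16) in DNMAML. Per kilobase of exon, Egfl7 stood at 301 CPM in Notch1f/f, 301 in DNMAML and 289 in WT, while Notch1 stood at 6.47, 54.5 and 58.2 CPM per kilobase in the same genotypes. Egfl7 shares exonic bases with Agpat2 and with the microRNA genes. Mir126a and Mir126b had 0 counts in all 9 libraries, and a read that overlaps several genes was not counted, so these rows do not measure the microRNA.

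Next in level per kilobase of exon, averaged over the 9 libraries, were the ribosomal protein gene Rpl7a (167 CPM per kilobase), the tubulin gene Tubb4b (70.6), the transcriptional coactivator Edf1 (64.0), the anaphase-promoting complex subunit Anapc2 (39.0) and the cargo receptor Surf4 (31.9). The median of the 94 genes was 5.11 CPM per kilobase and the lowest, Psd4, was at 0.133. Rpl7a has near-identical pseudogene copies, so its value is uncertain. It had 186, 378 and 442 CPM in Notch1f/f, 268, 266 and 291 CPM in DNMAML and 273, 235 and 341 CPM in WT, and the lowest and the highest of these 9 values were both Notch1f/f libraries. Summed over the 94 genes, levels were 4395 ± 129 CPM in Notch1f/f, 4300 ± 205 CPM in DNMAML and 4300 ± 150 CPM in WT (SD, n = 3 each), a difference smaller than the spread between libraries.

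**Figure D1:**
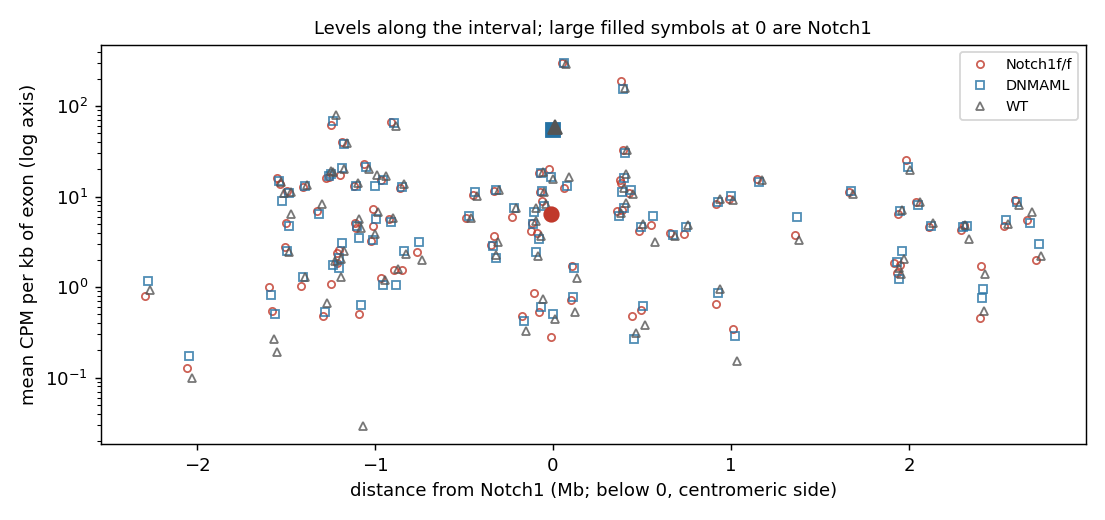
Mean CPM per kilobase of exon (log axis) of the 94 flanking genes against distance from Notch1 in Mb, with circles for Notch1f/f, squares for DNMAML and triangles for WT (n = 3 libraries each). The large filled symbols at 0 are Notch1, at 6.47 CPM per kilobase in Notch1f/f, against 54.5 in DNMAML and 58.2 in WT, while Egfl7 beside it stands at 301 in Notch1f/f and 301 in DNMAML, against 289 in WT.

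Notch1f/f against WT addresses whether genes near the floxed allele differ along with Notch1. None of the 94 genes passed: 0 were called by the edgeR quasi-likelihood test, while 0.836% of all 19486 genes tested were called. Notch1 itself missed the threshold in that test (edgeR, Benjamini-Hochberg adjusted p = 0.0634). The 0 calls therefore do not show that its neighbours were unchanged. DESeq2 also called 0 of the 94, against 6.2% of all genes it tested, and limma-voom 0, against 0.354%. Without a filter on low counts edgeR called 3 of the 94, Adamtsl2 and Sapcd2 higher and Clic3 lower, against 4.26% of all genes. That fit held 33247 genes, many of them under the 1 CPM minimum of the members. In the main edgeR fit there were 8 of the 94 (8.51%) at an unadjusted p below 0.05, 4 higher and 4 lower, against 13.4% of all genes. All 4 lower genes share exonic bases with another gene, which makes their counts uncertain. Among the 57 members without such overlap, 3 were higher and 0 lower (5.26%). The lowest Benjamini-Hochberg adjusted p among the 94 was 0.195, that of Card9, by the edgeR test. Their median log2 difference was 0.01, with 48 genes above 0 and 46 below, and the median over all genes tested was 0.02. Of the 68 genes with a mean of at least 5 CPM, 63 (92.6%) differed by less than 0.5 on the log2 scale, at a median SE of 0.18. Of all 94 genes 80.9% did, against 70.7% of all genes of at least 1 CPM. The share over all genes of at least 5 CPM was not computed.

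Closest to Notch1 on its centromeric side, where the gene ends, came 0610009E02Rik, Sec16a, Inpp5e, Pmpca, Entr1 and Gm13563. 0610009E02Rik overlaps Notch1 on the opposite strand and shares exonic bases with it; it had 1.48, 0.266 and 0.789 CPM in Notch1f/f against 1.25, 2.18 and 0.510 CPM in WT, and counting without strand makes this value uncertain. Sec16a (26299443 to 26335228), a scaffold of the sites where cargo leaves the endoplasmic reticulum, lies 12.7 kb from Notch1. It had 195, 200 and 156 CPM in Notch1f/f against 137, 154 and 144 CPM in WT. Every Notch1f/f library lay above every WT library, by a small margin in the closest pair, and the log2 difference was 0.34 (SE 0.13; edgeR, Benjamini-Hochberg adjusted p = 0.249). DNMAML libraries, at 139, 159 and 158 CPM, overlapped both.

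The other near neighbours on that side differed little. Inpp5e, a phosphoinositide phosphatase of the primary cilium, had a log2 difference between Notch1f/f and WT of 0.09 (SE 0.16). For Pmpca, a subunit of the mitochondrial processing peptidase, it was 0.02 (SE 0.14), and for Entr1, an endosomal trafficking protein, -0.03 (SE 0.13). Inpp5e and Pmpca share exonic bases, as do Entr1 and Gm13563, so reads in the shared parts were not counted. Gm13563 was near the minimum, with 1.70, 0.886 and 0.113 CPM in Notch1f/f against 1.04, 1.35 and 1.33 CPM in WT.

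Card9, Dnlz and Qsox2, which lie 97.0, 106 and 220 kb from Notch1 on the same side, had the lower values in Notch1f/f. Card9 encodes an adaptor that carries signals from fungal-sensing receptors in myeloid cells. It had 1.97, 1.42 and 2.48 CPM in Notch1f/f, 5.37, 4.84 and 6.43 CPM in DNMAML and 5.82, 6.92 and 2.45 CPM in WT. Notch1f/f lay wholly below DNMAML, and WT library 3 fell inside the Notch1f/f range. The log2 difference of Notch1f/f from WT was -1.37 (SE 0.46; edgeR, Benjamini-Hochberg adjusted p = 0.195), and from DNMAML it was -1.51 (SE 0.46; edgeR, Benjamini-Hochberg adjusted p = 0.549). Markers of leukocytes varied beside it: the 12 listed genes summed to 145 to 350 CPM in Notch1f/f, 382 to 689 in DNMAML and 122 to 830 in WT. Most of that sum was Lyz2, while Ptprc, the gene of the CD45 antigen used to remove leukocytes, had 14.5, 4.96 and 1.58 CPM in Notch1f/f, 28.0, 26.7 and 1.39 CPM in DNMAML and 4.99, 2.95 and 0.408 CPM in WT. Of the 11 leukocyte markers tested, 10 were above 0 in Notch1f/f against WT (median log2 difference 0.95). For DNMAML against WT it was 10 (median 2.24), and for Notch1f/f against DNMAML 1 (median -1.24). Their part in the Card9 value was not tested, and in such bulk samples fewer cells of a type and less RNA per cell cannot be told apart.

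Dnlz, a zinc finger protein that assists a mitochondrial chaperone, had 12.2, 14.3 and 17.8 CPM in Notch1f/f, 19.0, 21.8 and 18.3 CPM in DNMAML and 20.7, 21.7 and 22.4 CPM in WT. All Notch1f/f libraries lay below all others, with a log2 difference from WT of -0.55 (SE 0.19; edgeR, Benjamini-Hochberg adjusted p = 0.211). Its exons overlap those of Gpsm1, so the count is uncertain. Card9 and Qsox2 also share exonic bases with other genes, so their counts are uncertain too. Qsox2, a sulfhydryl oxidase that forms disulfide bonds, had 29.3, 28.2 and 24.6 CPM in Notch1f/f, 35.4, 37.4 and 30.8 CPM in DNMAML and 34.4, 36.0 and 35.0 CPM in WT. Notch1f/f again lay below both others, and the log2 difference from WT was -0.36 (SE 0.14; edgeR, Benjamini-Hochberg adjusted p = 0.283). Sec16a, Card9, Dnlz and Qsox2 were the 4 with an unadjusted p below 0.05 among 17 genes within 0.5 Mb on the centromeric side, and 0 of 13 on the telomeric side had one. The 4 of these 30 genes make 13.3%, against 13.4% of all genes.

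**Figure D2:**
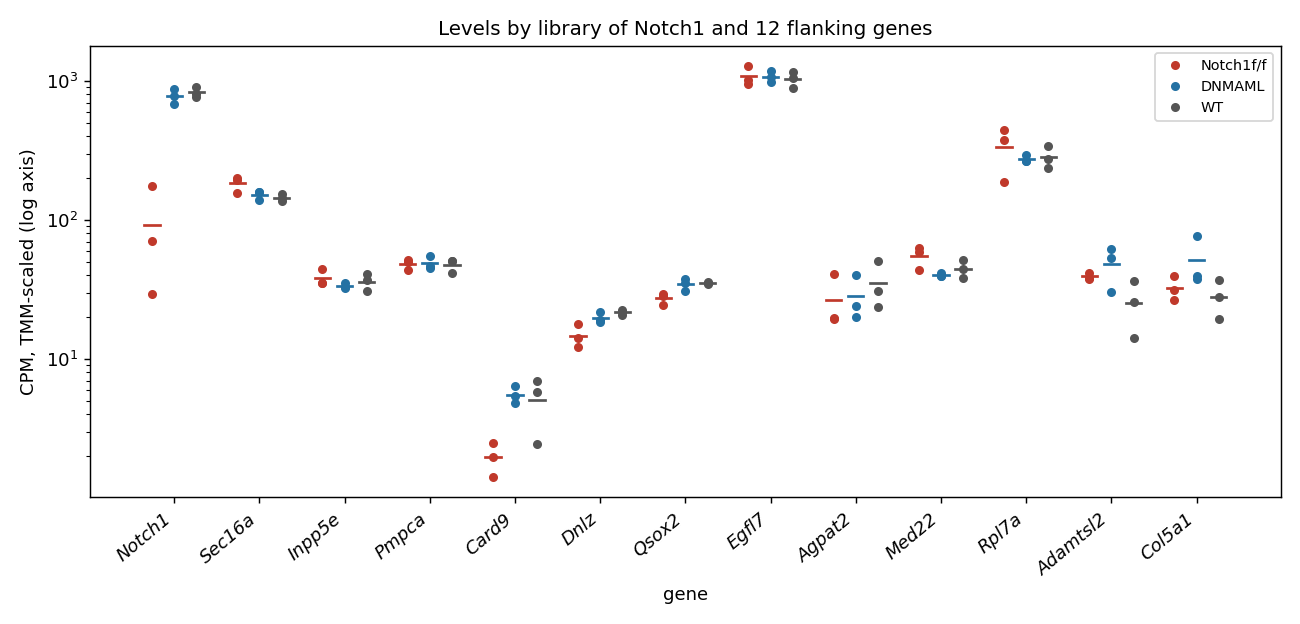
CPM per library on a log axis for Notch1 and 12 flanking genes, with 3 points and a bar at the mean for Notch1f/f, DNMAML and WT from left to right. Notch1 separates Notch1f/f, at 29.5 to 176 CPM, from WT, at 766 to 909 CPM, whereas Egfl7 and Pmpca overlap in all genotypes and Dnlz and Qsox2 lie slightly lower in Notch1f/f.

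On the telomeric side, upstream of Notch1, the first genes after Egfl7 were Agpat2, Fam69b, an unnamed gene (ENSMUSG00000120369), Surf6 and Med22. Agpat2, an acyltransferase that makes phosphatidic acid, had 41.0, 19.4 and 19.6 CPM in Notch1f/f against 30.7, 51.1 and 23.7 CPM in WT, a log2 difference of -0.40 (SE 0.40) with overlapping groups. Fam69b, which encodes a kinase-like protein and is also called Dipk1b, was low, at 2.86, 1.42 and 1.01 CPM in Notch1f/f against 0.728, 2.18 and 1.02 CPM in WT. Surf6, a nucleolar protein, and Med22, a subunit of the Mediator complex, had log2 differences from WT of 0.07 (SE 0.17) and 0.30 (SE 0.16). Of the surfeit cluster beyond them, Surf1, a cytochrome oxidase assembly factor, had 22.6, 22.3 and 29.3 CPM in Notch1f/f against 30.6, 32.0 and 31.8 CPM in WT. Its groups did not overlap, and the log2 difference was -0.35 (SE 0.18; edgeR, Benjamini-Hochberg adjusted p = 0.441). Surf1 shares exonic bases with another gene, so its count is uncertain. Surf4, the cargo receptor, differed by 0.01 (SE 0.11).

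Groups did not overlap between Notch1f/f and WT for 13 of the 94 genes, 4 higher and 9 lower, which is 13.8% against 17.8% of all genes tested (8.5% higher and 9.33% lower). Of these 13, 10 lay within 1 Mb of Notch1, where 47 genes were measured (21.3% of them); 2 were higher (Sec16a and Adamtsl2) and 8 lower. Paxx, a DNA repair factor, was among the lower, with 6.98, 12.6 and 9.92 CPM in Notch1f/f against 14.1, 13.3 and 14.3 CPM in WT (log2 difference -0.50, SE 0.27; edgeR, Benjamini-Hochberg adjusted p = 0.458). Gm38147, 1582 kb from Notch1, was among the higher of the 13. It had 2.55, 1.42 and 1.47 CPM in Notch1f/f against 0.676, 0.769 and 0 CPM in WT. Its log2 difference was 1.91 (SE 1.02, edgeR, Benjamini-Hochberg adjusted p = 0.464). Median log2 differences by distance were 0.03 for 30 genes within 0.5 Mb, -0.03 for 17 genes at 0.5 to 1 Mb, 0.02 for 35 genes at 1 to 2 Mb and -0.10 for 12 genes beyond 2 Mb. The 10th to 90th percentile of the 94 genes was -0.43 to 0.50, against -0.65 to 0.74 for all genes of at least 1 CPM. In the 2 adjoining windows of the same length it was -0.46 to 0.72 (28 genes, centromeric) and -0.51 to 0.49 (110 genes, telomeric), and of those genes 0 and 2 were called.

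**Figure D3:**
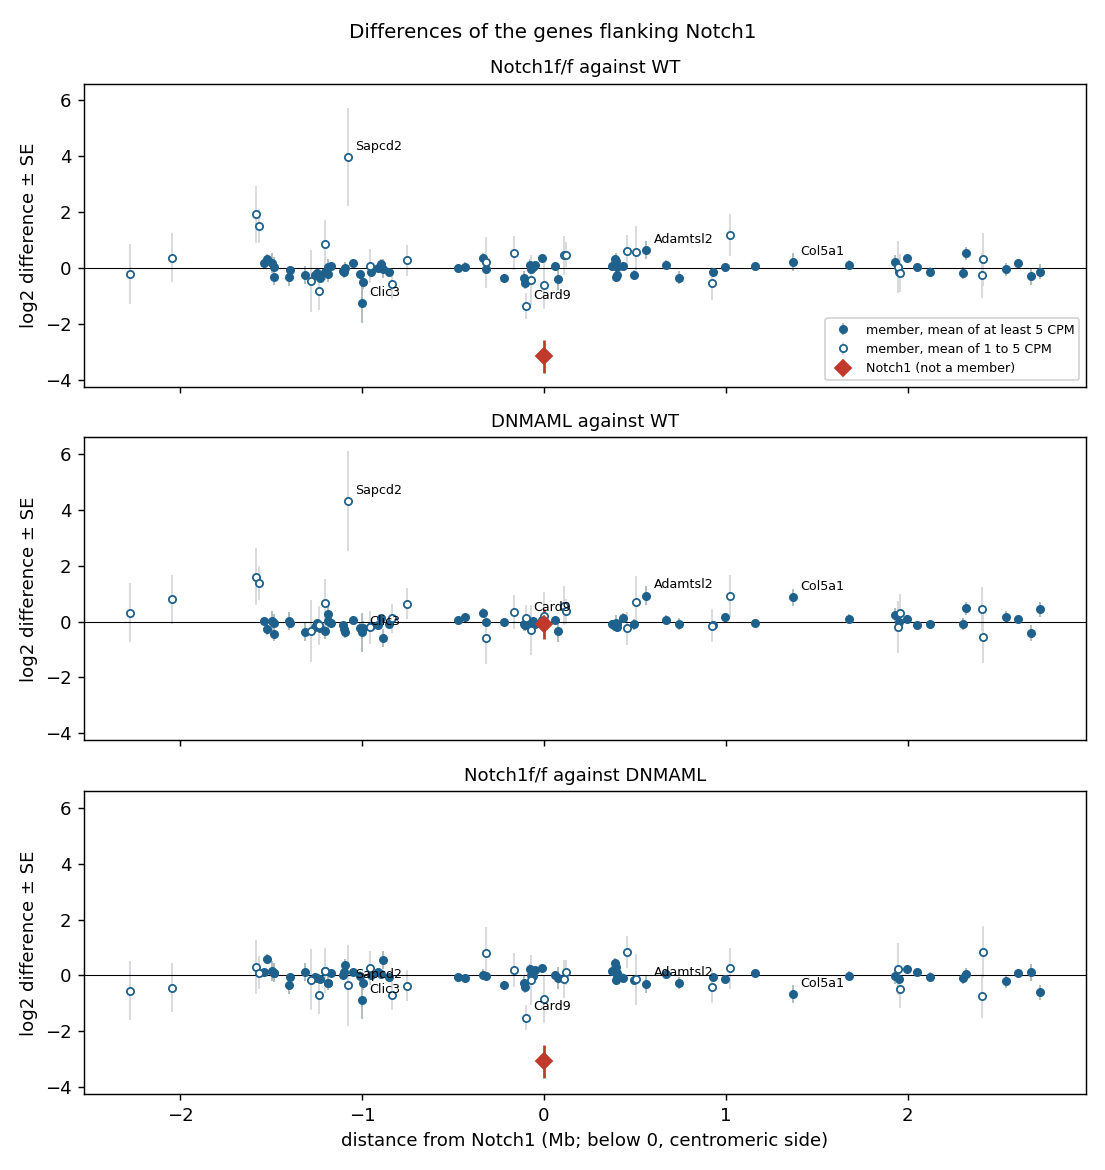
Log2 difference with its SE of each flanking gene against distance from Notch1 in Mb, in 3 panels for Notch1f/f against WT, DNMAML against WT and Notch1f/f against DNMAML; filled circles have a mean of at least 5 CPM, open circles 1 to 5 CPM, and the diamond is Notch1. Notch1 lies at -3.17 and -3.08 in the comparisons that involve Notch1f/f, and the filled circles lie between -1.26 and 0.93 in every panel.

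For DNMAML against WT, the labels name no floxed Notch1 allele on either side, but they do not establish that it was absent. Of the 94 genes 0 were called higher or lower by edgeR, against 0.00513% of all genes. DESeq2 called 0 of the 94 against 1.14% of all genes, and limma-voom 0 against 0.0%. Without a filter on low counts edgeR called 3 of the 94, all higher (Adamtsl2, Col5a1 and Sapcd2), against 1.38% of all 33247 genes of that fit. Many of those were under the 1 CPM minimum of the members. At an unadjusted p below 0.05 there were 4 (4.26%), all of them higher, against 5.97% of all genes. Groups did not overlap for 8 genes (8.51%), 6 higher and 2 lower, against 14.4% of all genes tested (7.58% higher and 6.84% lower). The median log2 difference was -0.04, with 42 genes above 0 and 52 below, beside 0.01 over all genes. Within 0.5 Mb of Notch1 none of 30 genes had an unadjusted p below 0.05.

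Among the 68 genes of at least 5 CPM, Adamtsl2 and Col5a1 had the highest log2 differences of DNMAML from WT. Adamtsl2 (26969391 to 26998993), a secreted glycoprotein of the matrix, had 53.1, 61.4 and 30.4 CPM in DNMAML against 36.2, 14.1 and 25.7 CPM in WT; the log2 difference was 0.93 (SE 0.33; edgeR, Benjamini-Hochberg adjusted p = 0.644) and the groups overlapped. Notch1f/f libraries were close together at 37.5, 41.9 and 38.6 CPM, each above every WT library (log2 difference 0.63, SE 0.33; edgeR, Benjamini-Hochberg adjusted p = 0.461). Col5a1 (27776437 to 27929526), the alpha-1 chain of type V collagen, had 77.2, 39.4 and 37.6 CPM in DNMAML against 37.0, 27.9 and 19.5 CPM in WT. Each DNMAML library was above each WT library, by little in the closest pair, with a log2 difference of 0.87 (SE 0.31; edgeR, Benjamini-Hochberg adjusted p = 0.649). In Notch1f/f, Col5a1 stood at 31.3, 26.6 and 39.2 CPM, overlapping WT. Col5a1 shares exonic bases with other genes, so its count is uncertain. The 6 fibroblast markers summed to 94.3 to 276 CPM in Notch1f/f, 168 to 768 in DNMAML and 218 to 738 in WT, and their part in the collagen value was not tested.

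Deviations from the group means were correlated in DNMAML and WT libraries of equal number. This was seen in the same data and does not establish that such libraries were paired. With the number as a block in a fit to these 6 libraries, Col5a1 was the single member that passed: it rose in DNMAML by 0.84 on the log2 scale (SE 0.14; edgeR, Benjamini-Hochberg adjusted p = 0.0163), 1 of 94 genes against 1.71% of all genes in that fit. Each such pair held a library with Y-linked transcripts and one without, so within a pair genotype and sex cannot be told apart. With the block in all 9 libraries the adjusted p of Col5a1 was 0.489 (edgeR, Benjamini-Hochberg), and with no block but without DNMAML library 1 its log2 difference was 0.45.

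Sapcd2, a regulator of spindle orientation in dividing cells, had the largest fitted difference in both comparisons with WT. It had 0.313, 0 and 4.96 CPM in Notch1f/f libraries. DNMAML libraries had 1.68, 2.60 and 2.41 CPM, against 0, 0 and 0.306 CPM in WT. The WT value rests on 6 counts in library 3. DNMAML lay above WT in every pair of libraries, while Notch1f/f spanned both, and the edgeR Benjamini-Hochberg adjusted p was 0.366 for Notch1f/f and 0.771 for DNMAML, each against WT. The summed cell cycle markers were 62.4, 320 and 374 CPM in Notch1f/f libraries 1, 2 and 3, 224 to 287 CPM in DNMAML and 15.1 to 19.3 CPM in WT. Notch1f/f library 2 thus had high cell cycle markers and 0 counts of Sapcd2, and their part in the Sapcd2 values was not tested. Among the remaining genes whose groups did not overlap, Gm37139, whose exons overlap those of the histone methyltransferase gene Ehmt1, had 1.97, 3.20 and 1.61 CPM in DNMAML against 0.624, 1.03 and 0.918 CPM in WT. Notch1f/f libraries, at 3.49, 1.33 and 2.42 CPM, also lay above every WT library. The log2 difference of Gm37139 from WT was 1.39 (SE 0.61) in DNMAML and 1.49 (SE 0.61) in Notch1f/f. Ddx31, an RNA helicase of the nucleolus, had 16.5, 18.4 and 15.3 CPM in DNMAML against 9.77, 12.8 and 13.7 CPM in WT (log2 difference 0.47, SE 0.24). In Notch1f/f, Ddx31 stood at 13.2, 21.9 and 16.7 CPM, overlapping WT, with a log2 difference from WT of 0.52 (SE 0.24).

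**Figure D4:**
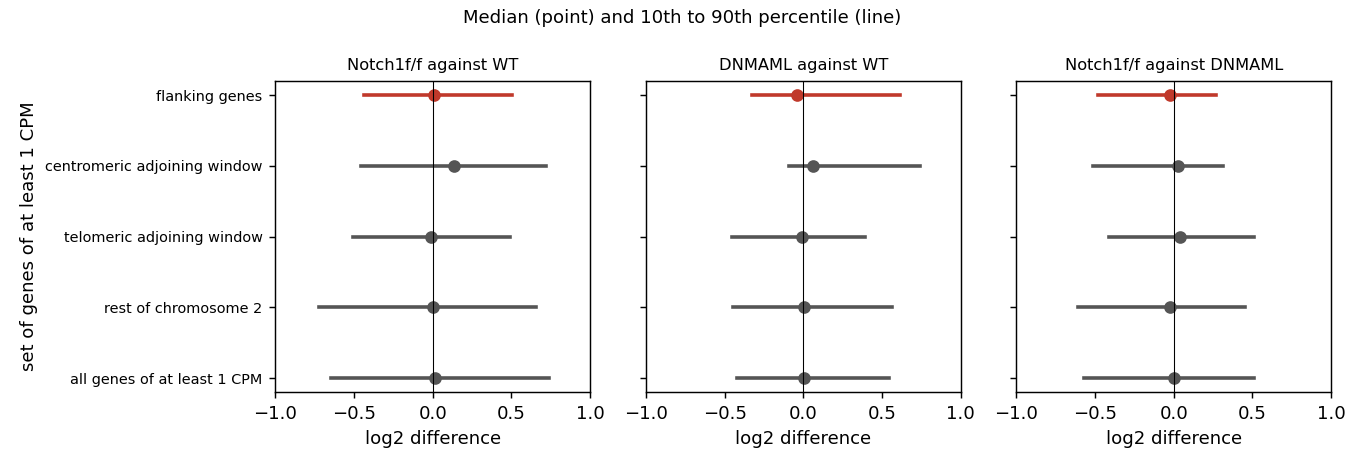
Median (point) and 10th to 90th percentile (line) of the log2 difference in the 94 flanking genes, the adjoining windows on each side, the rest of chromosome 2 and all genes with a mean of at least 1 CPM, for each of the 3 comparisons. For Notch1f/f against WT the flanking genes run from -0.43 to 0.50, and all genes of at least 1 CPM from -0.65 to 0.74.

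The direct comparison of Notch1f/f with DNMAML shares its libraries with the others and is given beside them. Again 0 of 94 genes were called by edgeR, against 0.0205% of all genes. DESeq2 called 0 against 1.02%, limma-voom 0 against 0.0205%, and edgeR without a filter on low counts 1 (Col5a1, lower) against 2.09%. By edgeR 5 (5.32%) had an unadjusted p below 0.05 against 6.37% of all genes. Groups did not overlap for 8 genes (8.51%), 4 higher and 4 lower, against 9.72% of all genes tested (4.4% higher and 5.32% lower); 7 of the 8 lay within 1 Mb of Notch1, which is 14.9% of the 47 genes there. Those higher in Notch1f/f were Arrdc1, Mamdc4, Med22 and Adamts13, and those lower were Card9, Dnlz, Qsox2 and Tmem141. Arrdc1, an alpha-arrestin that sorts membrane cargo, had 26.2, 39.2 and 37.2 CPM in Notch1f/f against 21.9, 22.7 and 23.5 CPM in DNMAML (log2 difference 0.59, SE 0.19; edgeR, Benjamini-Hochberg adjusted p = 0.595). Med22 had 43.7, 62.8 and 58.9 CPM in Notch1f/f against 41.5, 39.7 and 39.7 CPM in DNMAML (log2 difference 0.45, SE 0.16). Adamts13, the protease that cuts von Willebrand factor, was low, with 3.22, 2.13 and 1.69 CPM in Notch1f/f against 1.44, 1.10 and 1.39 CPM in DNMAML. The median log2 difference of the 94 genes was -0.02.

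By role, no list of the interval had a called gene in any of the 3 comparisons. The list of vessel, secreted and matrix genes had 7 members, among them Egfl7, Adamtsl2 and Col5a1, but also Sapcd2, whose known role is in cell division, and had median log2 differences from WT of 0.20 in Notch1f/f and 0.11 in DNMAML. The 11 signalling genes had median log2 differences from WT of 0.05 in Notch1f/f and -0.09 in DNMAML. Among them Ralgds, an activator of Ral GTPases, had 128, 165 and 186 CPM in Notch1f/f against 132, 127 and 121 CPM in WT (log2 difference 0.33, SE 0.14; edgeR, Benjamini-Hochberg adjusted p = 0.302), with library 1 of Notch1f/f inside the WT range. Rxra, the retinoid X receptor, differed from WT by 0.05 (SE 0.13) in Notch1f/f and -0.05 (SE 0.13) in DNMAML. The 15 genes of transcription, chromatin and RNA had medians of 0.11 in Notch1f/f and 0.02 in DNMAML. In Notch1f/f against WT 12 of the 15 were above 0, beside 10084 of all 19486 genes tested. The lists of lipids, membranes and metabolism and of mitochondrial genes had 3 of 10 and 2 of 5 above 0 there. The 5 mitochondrial genes had medians of -0.15 in Notch1f/f and -0.05 in DNMAML, with Dnlz and Surf1 the lowest in Notch1f/f. The 10 genes of lipids, membranes and metabolism had medians of -0.20 in Notch1f/f and -0.16 in DNMAML, and the 6 of the secretory pathway 0.02 in each. The 6 genes of ribosome, cytoskeleton and division had medians of -0.02 in Notch1f/f and -0.04 in DNMAML. Tubb4b, which encodes a beta-tubulin and has close paralogs, had 131, 112 and 149 CPM in Notch1f/f against 163, 141 and 199 CPM in WT (log2 difference -0.36, SE 0.15; edgeR, Benjamini-Hochberg adjusted p = 0.317). Its groups overlapped. Of the 3 immune genes present, C8g and Psd4 were below 4 CPM in all libraries, and Il1rn, an interleukin-1 antagonist of the same window, did not reach the minimum. Nsmf, a messenger between synapse and nucleus, was the single gene of the neuronal list, with log2 differences from WT of -0.09 (SE 0.15) in Notch1f/f and -0.04 (SE 0.15) in DNMAML.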

How the data were processed

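The authors deposited whole-number read counts per gene for 9 RNA libraries. Per the file headers, featureCounts 2.0.1 made them with Ensembl release 107 of GRCm39. STAR 2.7 and another build, mm10, stand in the submitters' processing notes. Per the labels' protocols, libraries were strand-specific, depleted of ribosomal RNA and prepared together. The recorded command sets no strand and counts no read for several genes, so the 37 members that share exonic bases with another gene are uncertain. Symbols came from a GRCm38 names table, which holds 92 of the 94 members.

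Genes kept by filterByExpr entered edgeR 4.0.16 (R 4.3.3) with TMM scaling, a robust quasi-likelihood fit to 9 libraries with genotype as the only term, and Benjamini-Hochberg adjustment over 19486 genes. All 94 members passed the filter. CPM use the TMM-scaled library size, except in the minimum, which used plain totals. Each SE is the log2 difference divided by the square root of F, so it restates the test. Alternatives used RLE factors, other filters, DESeq2 1.42.0, limma-voom 3.58.1, a replicate block, fewer libraries and other member rules. The fit was tested on simulated data.

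The members and lists were chosen with earlier results of these data known. Genes were named from the 6 nearest on each side, the 6 largest differences each way without overlap, the 6 highest per kilobase and up to 3 of each role list. Not every gene that met this rule is described. Clic3 was added after its values were seen. Same-numbered libraries deviated together for DNMAML and WT (correlations 0.238, 0.344 and 0.179), but not for Notch1f/f with WT (-0.13, -0.02 and 0.191). Libraries of unlike number, Notch1f/f 1 and WT 2, reached 0.352, so such values do not establish pairing. Taking the number to pair only DNMAML and WT was a choice made on these same data. Counting error was not estimated apart from the spread between libraries. Relative to the level, it is larger for members under 5 CPM, which have fewer counts.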

Additional observations from a re-analysis of the deposited data

How the results depend on the processing

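With the edgeR test in its main form 0 members were called in each comparison, and this held with RLE factors, a filter at 1 CPM, DESeq2, limma-voom, the 6 libraries alone, the block in 9 libraries and without each library in turn, where up to 2.59% of all genes were called. Without a filter on low counts edgeR called 2 higher (Adamtsl2, Sapcd2) and 1 lower (Clic3) for Notch1f/f against WT, 3 higher (Adamtsl2, Col5a1, Sapcd2) for DNMAML against WT and 1 lower (Col5a1) for Notch1f/f against DNMAML, at nearly the same log2 differences; the cause was not tested. The replicate block in the 6 libraries gave 1 higher (Col5a1) for DNMAML against WT and changed no other call. Without single libraries the number of members whose groups did not overlap ran from 13 to 29 for Notch1f/f against WT, 8 to 22 for DNMAML against WT and 8 to 23 for Notch1f/f against DNMAML. Smaller groups overlap less by construction: without a library of the groups compared, the share over all genes was 23.1% to 33.6%, 22.3% to 25.6% and 14.8% to 26.5% in the same order, and that of the 94 members 20.2% to 30.9%, 17.02% to 23.4% and 13.8% to 24.5%. Of the 57 members without exon overlap the groups of 7 (12.3%) did not overlap for Notch1f/f against WT, 5 (8.77%) for DNMAML against WT and 4 (7.02%) for Notch1f/f against DNMAML. For DNMAML against WT it was 1 of 47 within 1 Mb (2.13%), and for Notch1f/f against DNMAML 5 of 68 at 5 CPM or more (7.35%). The shares over all genes are those given with the main counts. Median log2 differences stayed within 0.1 of 0 in all settings. Members under 5 CPM, 26 of 94, rest on few counts.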

Other observations

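Clic3, a chloride channel family protein 999 kb from Notch1 on the centromeric side, had 3.31, 3.68 and 15.1 CPM in Notch1f/f, 21.5, 4.99 and 13.7 CPM in DNMAML and 18.2, 9.999 and 24.3 CPM in WT. The groups overlapped, and the log2 difference of Notch1f/f from WT was -1.26 (SE 0.71; edgeR, Benjamini-Hochberg adjusted p = 0.512). It was chosen after its values were seen. The 6 alveolar epithelial markers, summed, were 154, 376 and 950 CPM in Notch1f/f, 1159, 168 and 1467 CPM in DNMAML and 1312, 377 and 3019 CPM in WT libraries 1, 2 and 3, and their part in the Clic3 value was not tested.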
